A study of Mus musculus with 12 samples.

Results

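The heme enzymes described here are 6 of the enzymes that build heme (Alas1, Alas2, Urod, Cpox, Ppox and Fech) and 3 that take it apart (Hmox1, Blvra and Blvrb). They were chosen by gene symbol from the probe sets that name a single gene, with the probe set of highest mean signal standing for its gene. All 9 had 1 such probe set, and they are 9 of 30062 genes measured and of 19987 tested. Liver RNA came from 12 C57BL/6J -Oca2p-un/J mice, 3 months old, each measured on 1 whole-transcript array. Of the mice, 4 received 20 nm silver particles coated with polyvinylpyrrolidone (PVP-AgNP), 4 received 20 nm particles coated with citrate (cit-AgNP), and 4 control mice received water. Silver was given by gavage at 4 mg per kg in 7 daily doses, and livers were taken 24 h after the last dose. Each group held 2 females and 2 males. All groups carry the unstable pink-eyed dilution allele of Oca2, and no group received citrate or PVP without silver. Nothing in the labels says more about how the mice were housed or littered, so the p-values measure the spread between these 12 mice.

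Heme is an iron-bearing porphyrin ring that serves hemoglobin, the cytochromes and catalase. Its synthesis starts in the mitochondrion, where 5-aminolevulinate synthase joins glycine to succinyl-CoA; the enzyme of liver and most other tissues is encoded by Alas1 and is repressed by heme itself, while Alas2 on the X chromosome encodes the form of red cell precursors. The middle steps run in the cytosol and the last ones in the mitochondrion, ending with ferrochelatase (Fech), which inserts the iron. Breakdown starts with heme oxygenase, which opens the ring and releases iron, carbon monoxide and biliverdin, and biliverdin reductases turn biliverdin into bilirubin. In the liver, hepatocytes make heme mainly for cytochrome P450 enzymes, and Kupffer cells, the resident macrophages, recycle heme from aged red cells.

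A single member differed past the threshold in any comparison, and it did so with sex. Alas2 was lower in females, at 0.130 times the male level, in a comparison where 2.18% of all genes tested passed. With silver, 0 of the 9 enzymes passed against control with either coating, or between the coatings. Of all genes tested, 0.04% passed with PVP-AgNP, 0.005% with cit-AgNP and 0% between the coatings. Against control, the largest estimates, neither of which passed, were a log2 difference of 0.93 for Alas1 with cit-AgNP and of 0.68 for Hmox1 with PVP-AgNP. Ppox had the smallest unadjusted p-values with either coating, at log2 differences of -0.26 with PVP-AgNP and -0.34 with cit-AgNP.

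Levels are given as log2 signal, so that a difference of 1 is a doubling, and they are not compared between genes because probe sets differ in response. Tests are two-sided limma fits over the 12 arrays with terms for group and sex, with Benjamini-Hochberg adjusted p-values over all 19987 genes and a threshold of 0.05. The number of arrays limits the precision. Hepatocyte markers sat at or near the upper limit of the scale on all 12 arrays, with list means of 19.89 to 19.93, and array pairs correlated at 0.977 to 0.996. The arrays differed in quality, measured as the area under the curve that separates exon from intron control probe sets. PVP-AgNP replicates 1 and 4 had the lowest areas, 0.778 and 0.794, against 0.804 to 0.842 on the others.

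The promoter sequences of Alas2 and Cpox are shown. Alas2 is the member whose level differed with sex, and Cpox is the other member whose window holds AGATAA or TGATAA. These are among the GATA letters read by the erythroid factor Gata1 and its relatives in other tissues. Other GATA spellings were not searched for in any window. Each line gives the 250 bases before the RefSeq start on GRCm38.p6, plus strand, at chrX:150547167-150547416 for Alas2 and chr16:58669958-58670207 for Cpox. Capitals mark AGATAA and TGATAA, read on either strand.
Alas2: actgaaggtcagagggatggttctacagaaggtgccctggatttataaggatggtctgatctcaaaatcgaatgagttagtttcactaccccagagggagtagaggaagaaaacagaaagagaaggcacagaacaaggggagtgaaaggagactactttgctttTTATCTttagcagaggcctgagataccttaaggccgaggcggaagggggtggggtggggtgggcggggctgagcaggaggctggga
Cpox: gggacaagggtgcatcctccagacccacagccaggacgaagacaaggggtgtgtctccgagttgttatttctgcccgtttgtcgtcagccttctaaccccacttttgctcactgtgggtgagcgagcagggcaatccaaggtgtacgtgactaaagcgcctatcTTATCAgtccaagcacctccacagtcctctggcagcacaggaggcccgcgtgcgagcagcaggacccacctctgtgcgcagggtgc
The capitals read AGATAA in Alas2 and TGATAA in Cpox on the opposite strand, both beginning at position -86. The Cpox line also holds AGATAG on that strand, overlapping the capitals and left unmarked. Windows from 250 bases before to 50 bases after the start were searched on both strands for 6 motifs, picked after the levels were known: the GATA letters AGATAA and TGATAA, the E-box CACGTG, the STAT letters TTCNNNGAA, the TATA letters TATAAA, and the nuclear respiratory factor letters GCGCATGC. Of the members, 7 had a window, 9 windows in all. Alas2 also held TATAAA on the opposite strand at -209, and Cpox held AGATAA at position 4 after the start. Urod held CACGTG at -49. Alas1 held GCGCATGC in each of its 2 windows, which overlap, as 2 overlapping matches, and TTCNNNGAA at -171 in 1 of them. The windows of Ppox, Blvra and Blvrb held none of the 6. Of all 32851 RefSeq windows, 11.2% hold AGATAA, 9.05% TGATAA, 7.15% CACGTG, 8.3% TTCNNNGAA, 13.6% TATAAA and 2.71% GCGCATGC. A match is a string of letters and was not tested as a binding site.

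**Figure D1:**
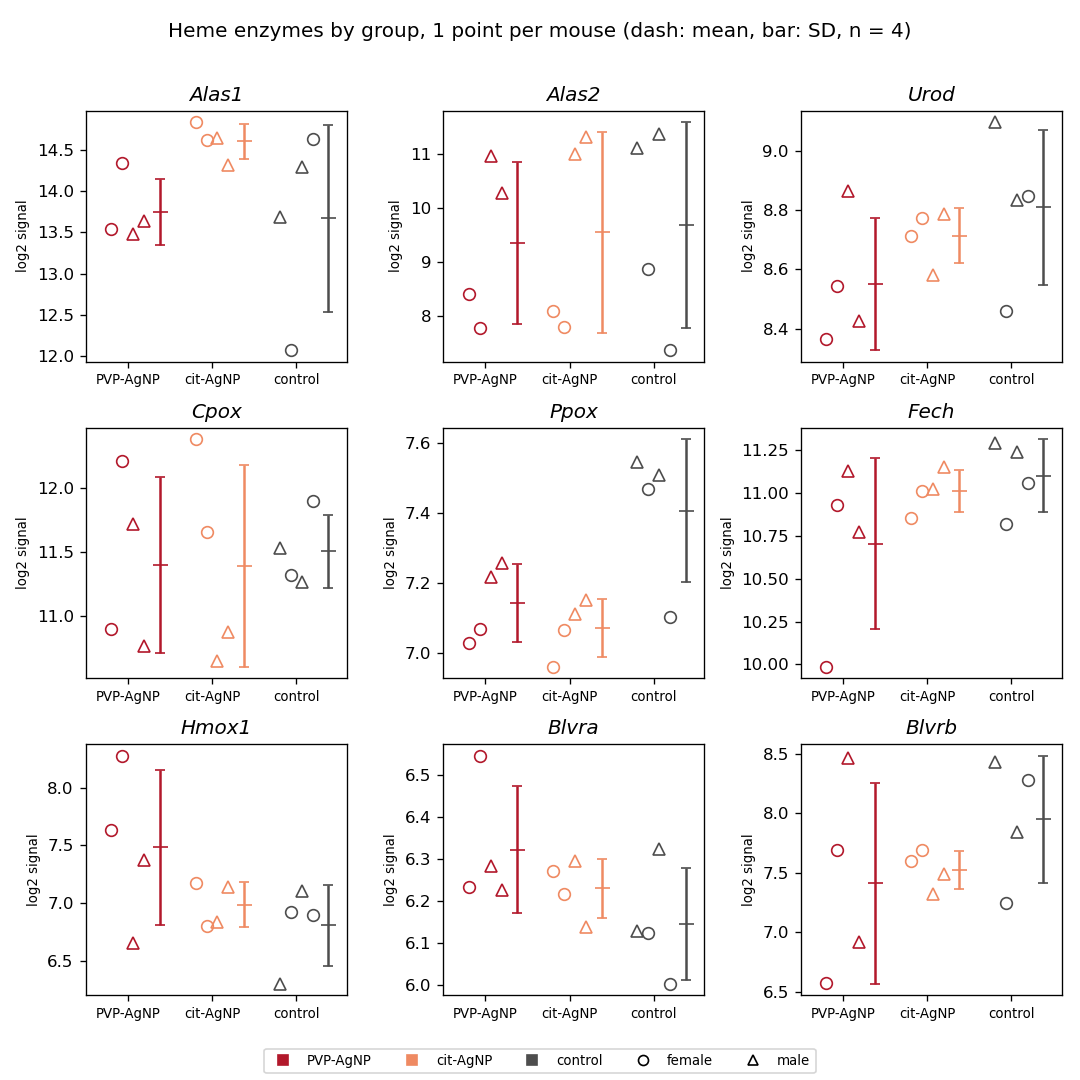
Log2 signal of the 9 enzymes in each mouse (vertical axes, a scale of its own per gene) by group (PVP-AgNP, cit-AgNP, control), with circles for females and triangles for males; the dash and bar give the mean and SD of 4 mice. Alas2 splits by sex within every group, and the other enzymes overlap between the groups.

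Among the genes of synthesis, Alas1, the rate-limiting and most strongly regulated step in hepatocytes, had log2 signals of 13.54, 14.34, 13.48 and 13.64 in PVP-AgNP livers, 14.84, 14.62, 14.64 and 14.32 in cit-AgNP livers, and 13.68, 12.08, 14.29 and 14.63 in control livers. The cit-AgNP livers were all high and close together, and control replicate 2, a female, was lowest of the 12. The mean was 13.75 ± 0.40 with PVP-AgNP, 14.60 ± 0.21 with cit-AgNP and 13.67 ± 1.13 in controls (SD, n = 4 each). The difference from control was 0.93 with cit-AgNP (SE 0.47, limma adjusted p = 0.83) and 0.08 with PVP-AgNP (SE 0.47, adjusted p = 0.94). Both values depended on control replicate 2: without it the difference was 0.33 with cit-AgNP (adjusted p = 0.77) and -0.52 with PVP-AgNP (adjusted p = 0.191). They also moved with the array area in the fit, to 1.04 with cit-AgNP (adjusted p = 0.42) and 0.76 with PVP-AgNP (adjusted p = 0.584). Between the coatings, 3 of 4 PVP-AgNP livers lay below all cit-AgNP livers. The difference was -0.85 (SE 0.47, limma adjusted p = 0.428, 95% interval -1.89 to 0.19), and -0.28 with the array area in the fit. No control mouse enters this difference, but the spread behind its SE is shared by all 12 arrays. Without control replicate 2 the difference was again -0.85. Its limma unadjusted p was then 0.0019, against 0.098 with all arrays, and its adjusted p 0.222.

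Alas2, the synthase of red cell precursors, had 8.42, 7.79, 10.96 and 10.28 in PVP-AgNP livers, 8.09, 7.81, 11.00 and 11.31 in cit-AgNP livers, and 11.12, 8.88, 11.36 and 7.37 in control livers. The high values in every group are those of the 2 males and the low values those of the 2 females. The 3 groups overlapped widely. The difference from control was -0.32 with PVP-AgNP (SE 0.32, limma adjusted p = 0.567) and -0.13 with cit-AgNP (SE 0.32, adjusted p = 1), with 95% intervals of -1.03 to 0.38 and -0.84 to 0.57. Without control replicate 2 the difference was -0.073 with PVP-AgNP and 0.12 with cit-AgNP. With the array area in the fit the difference with PVP-AgNP was -0.76.

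Urod, which trims the side chains of uroporphyrinogen in the cytosol, had 8.36, 8.55, 8.86 and 8.43 in PVP-AgNP livers, 8.71, 8.77, 8.58 and 8.79 in cit-AgNP livers, and 9.10, 8.46, 8.84 and 8.85 in control livers. Of the PVP-AgNP livers, 2 were below all controls, both on the arrays of lowest area. The differences from control were -0.26 with PVP-AgNP (SE 0.14, limma adjusted p = 0.322) and -0.10 with cit-AgNP (SE 0.14, adjusted p = 1). Without PVP-AgNP replicates 1 and 4 the value for PVP-AgNP was -0.10.

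Cpox, which makes protoporphyrinogen from coproporphyrinogen, had 10.89, 12.21, 11.72 and 10.76 in PVP-AgNP livers, 12.39, 11.66, 10.65 and 10.87 in cit-AgNP livers, and 11.53, 11.32, 11.26 and 11.90 in control livers. Both silver groups were spread on either side of the controls. The SD was 0.69 with PVP-AgNP, 0.79 with cit-AgNP and 0.29 in controls. The differences from control were -0.11 with either coating (SE 0.36, limma adjusted p = 0.884 for PVP-AgNP and 1 for cit-AgNP). The value for PVP-AgNP turned to 0.46 without replicates 1 and 4 and to 0.52 with the area in the fit, and was also above 0 without PVP-AgNP replicate 1 (0.19), without PVP-AgNP replicate 4 (0.02), without control replicate 1 (0.01) and after quantile normalization (0.0070). For cit-AgNP it was 0.05 without cit-AgNP replicate 3 and 0.0093 without control replicate 1.

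Ppox, which oxidises protoporphyrinogen to protoporphyrin, varied least among mice of one group and sex, with an SD of 0.11. It had 7.03, 7.07, 7.22 and 7.26 in PVP-AgNP livers, 6.96, 7.06, 7.11 and 7.15 in cit-AgNP livers, and 7.55, 7.47, 7.51 and 7.10 in control livers. Of the controls, 3 lay above every exposed liver, and control replicate 4, a female, lay among them. The difference from control was -0.26 with PVP-AgNP (SE 0.09, limma adjusted p = 0.166) and -0.34 with cit-AgNP (SE 0.09, adjusted p = 0.384), neither of which passed. All 4 livers of each silver group were below the control mean, and 2 of 4 were below all controls. The comparisons share the 4 control mice. The value with PVP-AgNP was -0.15 after quantile normalization.

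Fech, which inserts iron into protoporphyrin, had 9.98, 10.93, 11.13 and 10.78 in PVP-AgNP livers, 10.86, 11.01, 11.03 and 11.16 in cit-AgNP livers, and 11.30, 10.82, 11.24 and 11.06 in control livers. PVP-AgNP replicate 1, the array of lowest area, was lowest of the 12. The differences from control were -0.40 with PVP-AgNP (SE 0.19, limma adjusted p = 0.272) and -0.09 with cit-AgNP (SE 0.19, adjusted p = 1). Without the 2 arrays of lowest area the value for PVP-AgNP was -0.07.

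Of the breakdown genes, Hmox1 encodes the inducible heme oxygenase, a known target of the oxidative stress factor Nfe2l2 and of the heme-sensing repressor Bach1. It had 7.63, 8.27, 6.66 and 7.37 in PVP-AgNP livers, 7.17, 6.80, 6.84 and 7.13 in cit-AgNP livers, and 6.30, 6.92, 7.10 and 6.90 in control livers. Of the PVP-AgNP livers, 3 lay above all controls, and replicate 3, a male, lay within their range. The mean was 7.48 ± 0.67 with PVP-AgNP, 6.99 ± 0.19 with cit-AgNP and 6.81 ± 0.35 in controls (SD, n = 4 each). The difference from control was 0.68 with PVP-AgNP (SE 0.26, limma adjusted p = 0.205) and 0.18 with cit-AgNP (SE 0.26, adjusted p = 1), and that between the coatings 0.50 (SE 0.26, adjusted p = 0.415; 95% interval -0.09 to 1.08). The value for PVP-AgNP was 0.45 without PVP-AgNP replicate 2, 0.92 without PVP-AgNP replicate 3 and 0.66 without the 2 arrays of lowest area. The difference between the coatings was 0.27 without PVP-AgNP replicate 2 and 0.74 without PVP-AgNP replicate 3. Against control, the value for PVP-AgNP was 1.04 in females and 0.31 in males, from 2 mice a mean, and the difference between these, 0.73 (SE 0.48, limma adjusted p = 1), did not pass.

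Kupffer cell markers are set beside Hmox1, since these cells express it. The mean log2 signal of 11 of 11 markers measured ran from 7.90 to 9.97 in PVP-AgNP livers, from 7.83 to 9.17 in cit-AgNP livers and from 7.56 to 8.79 in control livers. The mouse highest in Hmox1, PVP-AgNP replicate 2, was also highest in these markers. It was highest in neutrophil markers too, at 7.09 against 4.48 to 6.02 on the other arrays. Of the 11 Kupffer cell markers, 0 passed the threshold in any silver comparison, where at most 0.04% of all genes did. The cit-AgNP females had Kupffer means of 9.17 and 8.82 with Hmox1 at 7.17 and 6.80, against an Hmox1 range of 6.30 to 7.10 in control livers. Control replicate 4 had 8.79 with Hmox1 at 6.90. PVP-AgNP replicates 1, 3 and 4 had Kupffer means of 8.29, 7.90 and 8.02 with Hmox1 at 7.63, 6.66 and 7.37. The part of these cells in the Hmox1 values was not tested.

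**Figure D2:**
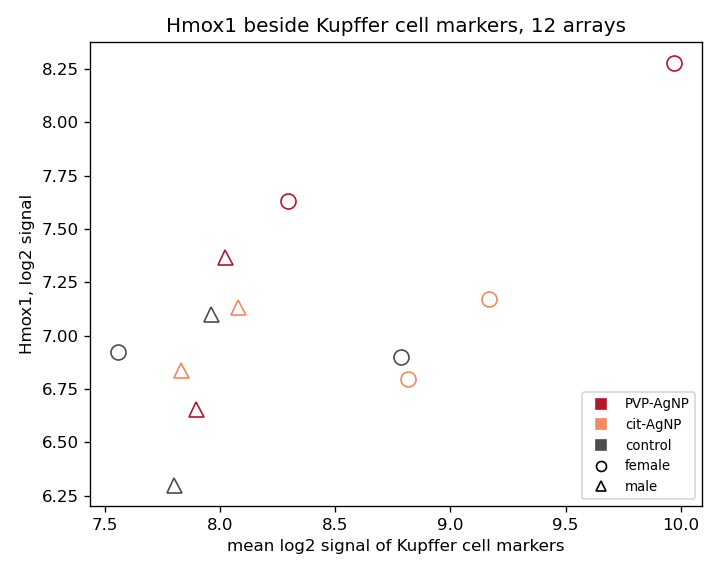
Hmox1 (vertical axis, log2 signal) against the mean log2 signal of 11 Kupffer cell markers (horizontal axis), 1 point per mouse, coloured by group with circles for females and triangles for males. PVP-AgNP replicate 2 stands at the top right with 8.27 and 9.97, and the 2 cit-AgNP females with marker means of 9.17 and 8.82 have 7.17 and 6.80. PVP-AgNP replicates 1, 3 and 4 have 7.63, 6.66 and 7.37 at marker means of 8.29, 7.90 and 8.02.

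Blvra, the main adult biliverdin reductase, had 6.23, 6.54, 6.28 and 6.23 in PVP-AgNP livers, 6.27, 6.22, 6.29 and 6.14 in cit-AgNP livers, and 6.13, 6.12, 6.32 and 6.00 in control livers. Its differences from control were 0.18 with PVP-AgNP (SE 0.09, limma adjusted p = 0.306) and 0.08 with cit-AgNP (SE 0.09, adjusted p = 0.999). Blvrb, another reductase that also reduces flavins, had 6.57, 7.69, 8.46 and 6.92 in PVP-AgNP livers, 7.60, 7.69, 7.32 and 7.49 in cit-AgNP livers, and 8.43, 7.24, 7.84 and 8.28 in control livers. Blvra spanned 0.54 over the 12 arrays and Blvrb 1.89. The differences of Blvrb from control were -0.54 with PVP-AgNP (SE 0.38, limma adjusted p = 0.426) and -0.42 with cit-AgNP (SE 0.38, adjusted p = 0.978). The lowest 2 of its 12 values came from the 2 arrays of lowest area. The value for PVP-AgNP turned to 0.13 without those arrays and to 0.20 with the area in the fit.

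**Figure D3:**
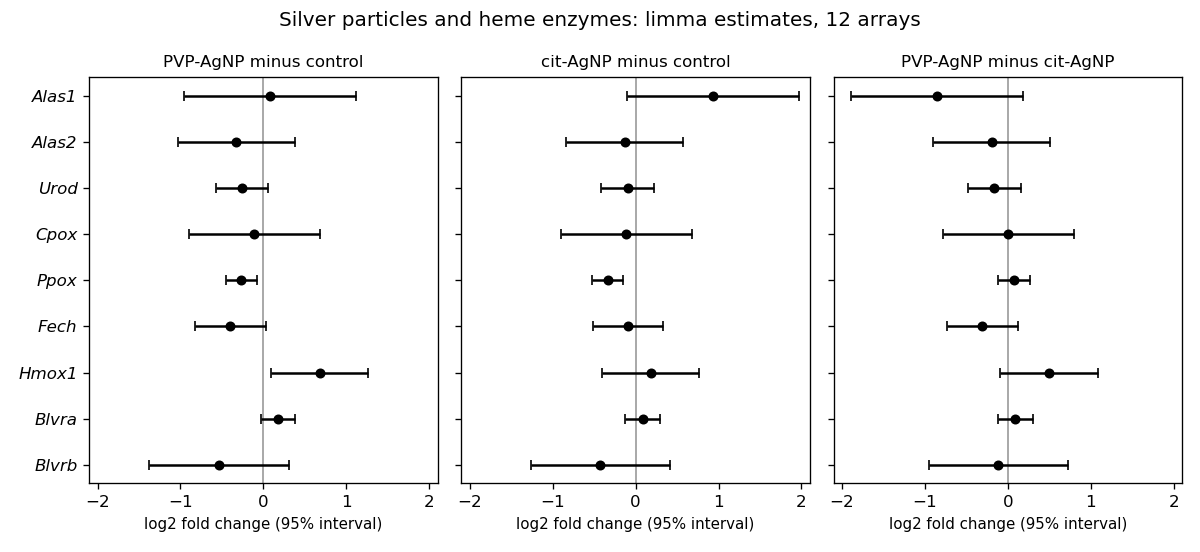
Log2 fold changes of the 9 enzymes (horizontal axes, point and 95% interval of the limma fit) for PVP-AgNP minus control, cit-AgNP minus control and PVP-AgNP minus cit-AgNP. The intervals of Hmox1 and Ppox with PVP-AgNP and of Ppox with cit-AgNP leave out 0 before adjustment, and none of the 27 estimates passed after it.

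Between the coatings, the 7 enzymes other than Alas1 and Hmox1 had log2 differences (PVP-AgNP minus cit-AgNP) from -0.31 for Fech (SE 0.19, 95% interval -0.73 to 0.12) to 0.09 for Blvra (SE 0.09, 95% interval -0.12 to 0.30), with limma adjusted p-values of 0.479 to 0.998. Without the 2 arrays of lowest area the difference was 0.020 for Fech, 0.55 for Blvrb and 0.57 for Cpox. The members' counts were near the background of the array. Of the 9, 0 passed with cit-AgNP, where 0.005% of the 19987 genes did, 0 with PVP-AgNP, where 0.04% did, and 0 between the coatings, where 0% did. At an unadjusted p under 0.05, 1 of 9 was reached with cit-AgNP (Ppox, lower) beside 6.57% of all genes, 2 of 9 with PVP-AgNP (Hmox1 higher, Ppox lower) beside 20.3%, and 0 of 9 between the coatings beside 14%. The median log2 difference of the 9 was -0.26 with PVP-AgNP and -0.10 with cit-AgNP, beside medians of all genes of -0.0023 and 0.00043. The median with PVP-AgNP turned to 0.20 with the array area in the fit and to 0.13 without the 2 arrays of lowest area. For the contrast of a coating's effect between the sexes (females minus males), 0 of 9 passed with either coating, beside 0% of all genes. At an unadjusted p under 0.05 the count was again 0 of 9 for both, beside 3.62% of genes for PVP-AgNP and 2.45% for cit-AgNP.

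The sex comparison gave the one call. Over all groups, Alas2 had log2 signals from 7.37 to 8.88 in the 6 females with a median of 7.95, and from 10.28 to 11.36 in the 6 males with a median of 11.06. No female overlapped any male. The mean was 8.06 ± 0.53 in females and 11.01 ± 0.39 in males (SD, n = 6 each), a difference of -2.95 (SE 0.26, limma adjusted p = 0.000211; 95% interval -3.52 to -2.37). On the linear scale the female level was 0.130 times the male level, with an interval of 0.0872 to 0.193. Of the 9 members, 1 was called, beside 2.18% of all genes in either direction and 1.25% lower in females. At an unadjusted p under 0.05 it was 2 of 9, Alas2 and Ppox, both lower, beside 15.3%. Alas2 ranked 19 by size among the 249 genes lower in females.

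The sex difference of Alas2 was present in each group. Female minus male was -2.52 in PVP-AgNP livers, -3.21 in cit-AgNP livers and -3.11 in control livers (SE 0.47 each), with limma adjusted p-values of 0.0866, 0.0529 and 0.0671 from 2 mice against 2. The change of that difference with silver did not pass, at 0.60 with PVP-AgNP (SE 0.66, limma adjusted p = 1) and -0.09 with cit-AgNP (SE 0.66, adjusted p = 1). The call over all groups held in all 23 alternative fits, with differences of -3.16 to -2.74 and adjusted p-values of 3.19e-05 to 0.0318, the highest with a replicate block. Leaving out any 1 of the 12 arrays gave adjusted p-values of at most 0.00132. Without the 2 arrays of lowest area the difference was -3.16.

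Since Alas2 is known from red cell precursors, markers of those cells are set beside it. Of the 17 erythroid markers, 9 had a probe set of a single gene, and the globin genes are not analysed here. Their mean log2 signal ran from 4.19 to 4.50 in females and from 4.20 to 4.34 in males, close to the limit of 3.93 below which genes were not tested. Slc4a1, Epb42 and Rhag, proteins of the red cell membrane, were below that limit. The log2 difference between the sexes among the 6 tested was from -0.02 for Ermap to 0.05 for Klf1. Of these, 0 passed the threshold, beside 2.18% of all genes. Kupffer cell markers, from 7.56 to 9.97 in females and from 7.80 to 8.08 in males, were also without a call (0 of 11). Their median log2 difference was 0.73, and 7 of 11 were higher in females at an unadjusted p under 0.05. Of all 19987 genes, 1271 were higher in females at that level. For neutrophil markers the median was 0.53, with 2 of 8 higher in females at that level and 0 past the threshold. The part of these cells in the sex difference of Alas2 was not tested. In whole liver, fewer cells of a type and less RNA per cell cannot be told apart. Of 1072 X-linked genes tested, 8 were higher and 6 lower in females.

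**Figure D4:**
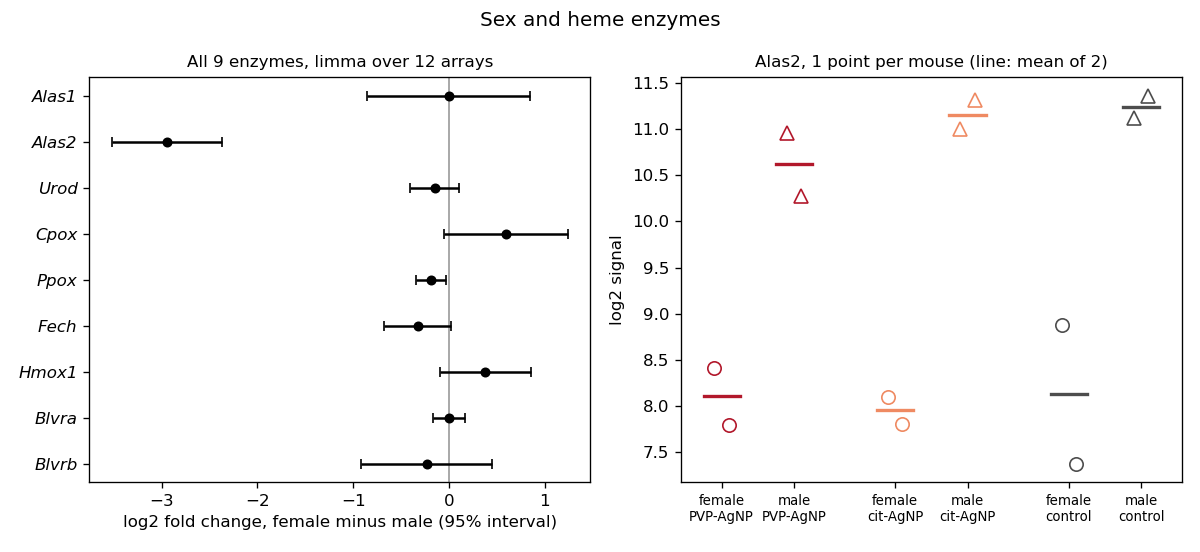
Left, the log2 fold change of each enzyme in females minus males (horizontal axis, point and 95% interval of the limma fit over 12 arrays); right, the log2 signal of Alas2 in each mouse by sex and group, with a line at the mean of 2 mice. Alas2 lies at -2.95 on the left, and on the right the females reach at most 8.88 and the males at least 10.28.

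The other 8 enzymes gave no call with sex. Cpox had the highest estimate, 0.60 (SE 0.29, limma adjusted p = 0.368), with 3 of 6 females above all males. Hmox1 had 0.38 (SE 0.22, adjusted p = 0.446), Fech -0.33 (SE 0.16, adjusted p = 0.361), Blvrb -0.23 (SE 0.31, adjusted p = 0.787), Ppox -0.18 (SE 0.07, adjusted p = 0.246) and Urod -0.15 (SE 0.12, adjusted p = 0.608). In Ppox, 5 of 6 females lay below all males. Alas1 and Blvra were at -0.0030 (SE 0.38) and -0.00044 (SE 0.08), each with an adjusted p of 1.

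The members also differed in how they followed each other over the 12 arrays, given here as a description of arrays that share groups, sexes and quality. Urod and Blvrb had a Pearson r of 0.89, Fech and Blvrb 0.78, and Urod and Fech 0.78. The lowest value was that of Urod and Hmox1, -0.66. After the mean of each sex within each group was taken out it was -0.40 for that pair. The lowest were then -0.89 for Alas1 and Ppox and -0.85 for Alas1 and Alas2. Each such mean is of 2 mice, whose deviations mirror each other. In Alas1, Ppox and Alas2 the 2 control females lay farthest apart, so they weigh most in both values. Control replicates 2 and 4 had 12.08 and 14.63 in Alas1, 7.47 and 7.10 in Ppox, and 8.88 and 7.37 in Alas2. With the exon over intron area of the array, r was 0.82 for Blvrb, 0.79 for Fech, 0.77 for Urod, 0.60 for Cpox and 0.54 for Alas1. For the other 4 it lay between -0.37 (Hmox1) and 0.04 (Ppox), and Alas2 had -0.12. Urod, Fech and Blvrb, which followed each other, were also the 3 with the highest Pearson r with array quality. By Spearman rho, Fech (0.566) was below Cpox (0.657) and Alas1 (0.573).

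**Figure D5:**
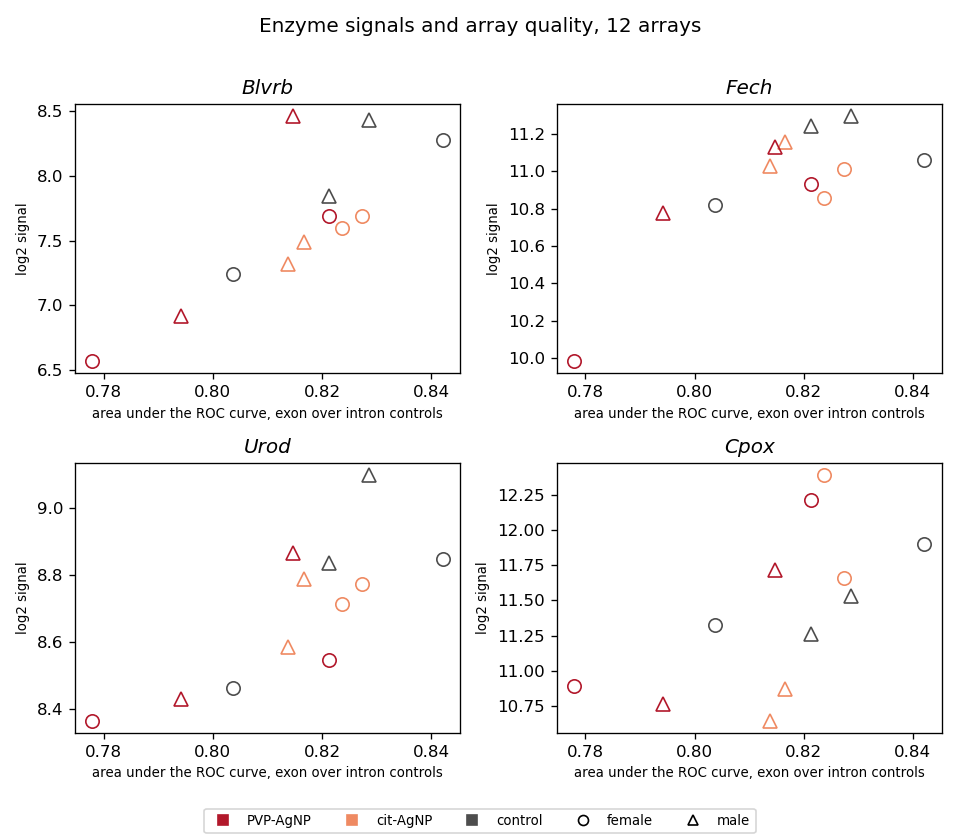
Log2 signal of Blvrb, Fech, Urod and Cpox (vertical axes) against the exon over intron area of the same array (horizontal axes), 1 point per mouse, coloured by group with circles for females and triangles for males. PVP-AgNP replicates 1 and 4, at areas of 0.778 and 0.794, hold the lowest 2 values of Blvrb, Fech and Urod.

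The genes whose signal was most like that of a member over the 12 arrays, predicted genes left out, were as follows. For Alas1 they were Gnl2, a nucleolar GTPase (r = 0.87), Ctu1, a tRNA thiolase (0.85), and Slc46a3, a lysosomal transporter (0.84). For Alas2 they were Dpy19l3, a mannosyltransferase of the endoplasmic reticulum (0.97), and Hsd3b5 and Cyp4a12b, a steroid dehydrogenase and a cytochrome P450 that are known to be higher in male mouse liver (0.97 each). Members of the Cyp4a12 and Hsd3b families are close in sequence, so their probe sets may share signal. The sexes do not overlap in Alas2, so the split by sex enters each r with it. Spearman rho with Alas2 was 0.92 for Dpy19l3, 0.80 for Hsd3b5 and 0.90 for Cyp4a12b. For Hmox1 they were Clca1 (0.95), Serpina10, a secreted protease inhibitor made in liver (0.95), and Tmem176b, a membrane protein of myeloid cells (0.94).

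The rest of the pathway was followed through 102 genes in 9 lists, of which 94 were measured and 92 tested. With silver, 0 of 92 passed in any of the 3 comparisons. Of all 19987 genes, 0.04% passed with PVP-AgNP, 0.005% with cit-AgNP and 0% between the coatings. The other synthesis enzymes measured were Alad, which condenses aminolevulinate, and Uros, which closes the ring. Alad differed from control by -0.37 with PVP-AgNP (limma adjusted p = 0.441) and -0.14 with cit-AgNP (adjusted p = 1), and Uros by -0.14 (adjusted p = 0.347) and 0.01 (adjusted p = 1). The constitutive heme oxygenase Hmox2 had 0.07 with PVP-AgNP (adjusted p = 0.647) and 0.14 with cit-AgNP (adjusted p = 0.892). The value of Alad with PVP-AgNP was 0.12 with the array area in the fit.

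Nearest to the threshold with PVP-AgNP were 2 genes of heme proteins and their partners. Suox, the mitochondrial sulfite oxidase, which carries a heme domain, had a log2 difference from control of -1.11 (SE 0.21, limma adjusted p = 0.0718). It passed in 1 of 25 alternative fits, that with array weights (adjusted p = 0.0469), and in 0 of those that left out 1 array. The highest adjusted p was 0.29. Cyb5r3, which reduces cytochrome b5, had -0.92 (SE 0.22, adjusted p = 0.109). Between the coatings they had -0.80 and -0.78 (adjusted p = 0.247 and 0.258). In iron handling, the ferritin light chain gene Ftl1 had -0.44 with PVP-AgNP (SE 0.11, adjusted p = 0.119) and -0.26 with cit-AgNP (adjusted p = 0.749), and Tfr2, an iron sensor of hepatocytes, 0.56 with PVP-AgNP (SE 0.19, adjusted p = 0.177). With cit-AgNP, Hamp2 had -0.16 (adjusted p = 0.725), and Ncoa4, which delivers ferritin to lysosomes, had -0.66 between the coatings (adjusted p = 0.272).

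In mitochondrial supply and porphyrin transport, the median of 17 tested genes was -0.22 with PVP-AgNP and -0.05 with cit-AgNP. The medians of all genes were -0.0023 and 0.00043. The list median was not taken with the array area in the fit. Slc25a38, the glycine importer for heme synthesis, had -0.26 with PVP-AgNP (SE 0.07, limma adjusted p = 0.135) and -0.12 with cit-AgNP (adjusted p = 0.893). Clpx, a chaperone that acts on aminolevulinate synthase, had -0.39 with PVP-AgNP (SE 0.12, adjusted p = 0.152) and -0.41 between the coatings (adjusted p = 0.258), and the iron importer Slc25a37 had -0.40 with cit-AgNP (adjusted p = 0.617). Sucla2 had -0.21 between the coatings (adjusted p = 0.352). None of these passed.

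Scavengers of free hemoglobin and heme had a median of 0.50 with PVP-AgNP and 0.11 with cit-AgNP over 4 genes. The medians of all genes were -0.0023 and 0.00043. This list median, too, was not taken with the array area in the fit. Haptoglobin (Hp) had 0.49 with PVP-AgNP (SE 0.15, limma adjusted p = 0.149) and 0.34 between the coatings (adjusted p = 0.35). Cd163, the macrophage receptor for haptoglobin bound to hemoglobin, had 1.05 with PVP-AgNP (SE 0.41, adjusted p = 0.202) and 0.96 with cit-AgNP (SE 0.41, adjusted p = 0.727). Hpx, which binds heme, had 0.07 with cit-AgNP (adjusted p = 0.963), and its receptor Lrp1 had 0.61 between the coatings (adjusted p = 0.346). Cd163 is also 1 of the 11 Kupffer cell markers given above.

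Among 22 tested regulators, the heme-binding clock repressor Nr1d1 had -0.74 with PVP-AgNP (SE 0.23, limma adjusted p = 0.152) and -1.23 with cit-AgNP (SE 0.23, adjusted p = 0.187). Nfe2l2 had -0.73 with cit-AgNP (SE 0.20, adjusted p = 0.399), and the repressor Bach2 -0.56 with PVP-AgNP (SE 0.17, adjusted p = 0.149). Between the coatings Bach1, the repressor of Hmox1, had -0.50 (adjusted p = 0.344) and Foxo1, an insulin-regulated factor, -0.76 (adjusted p = 0.33). None of these passed.

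In heme trafficking, Slc48a1 and Hebp1 had -0.25 and -0.18 with PVP-AgNP (limma adjusted p = 0.399 and 0.462), Pgrmc2 and Flvcr2 had -0.25 and -0.35 with cit-AgNP (adjusted p = 0.765 and 0.986), and Pgrmc2 and Slc46a1 had 0.27 and -0.15 between the coatings (adjusted p = 0.343 and 0.503). Bilirubin handling gave Gsta3 and Abcc3 at -0.45 and -0.51 with PVP-AgNP (adjusted p = 0.268 and 0.303), Abcc3 and Slco1a1 at -0.60 and 1.29 with cit-AgNP (adjusted p = 0.754 and 0.979), and Abcc2 and Gsta3 at 0.21 and -0.26 between the coatings (adjusted p = 0.557 and 0.597). Cyp7a1, the rate-limiting enzyme of bile acid synthesis and a heme protein, had 1.47 with cit-AgNP (SE 0.48, adjusted p = 0.533), and the globin Cygb -0.11 (adjusted p = 0.847). Slco1a1 with cit-AgNP was at 0.24 without control replicate 4 and at 2.04 without control replicate 2. All of these were short of the threshold.

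With sex, 8 of the 92 pathway genes passed, 5 higher and 3 lower in females, beside the 2.18% of all genes. Cyp2b10, a cytochrome P450 induced through the xenobiotic receptor Nr1i3, was higher in females by 3.87 (SE 0.51, limma adjusted p = 0.00323). The P450 Cyp4a14 was higher by 3.18 (SE 0.71, adjusted p = 0.0494), the organic anion importer Slco1a4 by 2.21 (SE 0.39, adjusted p = 0.0173), Egr1, an immediate early factor, by 1.58 (SE 0.30, adjusted p = 0.0243), and the sulfide oxidoreductase Sqor by 0.61 (SE 0.12, adjusted p = 0.0304). Lower in females were the importer Slco1a1, with -5.02 (SE 0.95, adjusted p = 0.0243), the porphyrin exporter Abcg2, with -1.31 (SE 0.25, adjusted p = 0.0265), and the mitochondrial transporter Abcb10, with -0.51 (SE 0.11, adjusted p = 0.0415).

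These calls were less firm than that of Alas2. Over 12 fits that each left out 1 array, Cyp2b10 passed in 12, Slco1a4 in 11, Abcg2 and Slco1a1 in 8, Egr1 and Sqor in 4, Cyp4a14 in 2 and Abcb10 in 1. Slco1a4 was lost without cit-AgNP replicate 3 (limma adjusted p = 0.0508). Abcg2 was lost without control replicate 1, 3 or 4 or cit-AgNP replicate 4 (adjusted p up to 0.0678), and Slco1a1 without control replicate 1 or 3 or PVP-AgNP replicate 3 or 4 (up to 0.0642). Egr1 reached 0.0663, Sqor 0.0873, Abcb10 0.0976 and Cyp4a14 0.124. With a replicate block, none of the 8 passed (adjusted p from 0.061 for Slco1a1 to 0.495 for Cyp4a14). Replicates 2 were all female and replicates 3 all male, so that fit took the sex difference from replicates 1 and 4 only. Over all genes, calls with sex fell from 435 to 56 in it. Without the 2 arrays of lowest area, 4 were lost: Slco1a1 (adjusted p = 0.0513), Abcb10 (0.0546), Cyp4a14 (0.0883) and Egr1 (0.0953). Abcb10 was also lost after median centring (adjusted p = 0.102) and with no filter on low signal (0.0629). Sqor was lost after quantile normalization (adjusted p = 0.068) and with 6 means of group by sex (0.062). Cyp4a14 was lost with no filter (adjusted p = 0.0659), with 6 means (0.0535) and with no trend in the variance (0.0512).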

How the data were processed

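Total RNA of 12 mouse livers, 1 array per mouse, was measured on Affymetrix whole-transcript arrays. The authors deposited log2 signal values for 72688 probe sets; the submitters' processing notes name RMA and Transcriptome Analysis Console 4.0.1.36 without roles. The genome build and annotation behind the signals are not given in the sources used here. Values ran from 1.73 to a ceiling of 19.93, and no further scaling was applied.

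Of the probe sets, 30604 named 1 gene in the platform's table, 2146 several and 39938 none. Symbols of 1121 were updated from a RefSeq table of GRCm38.p6, which also gave chromosomes and promoter sequences. A gene was tested if its mean exceeded the probe sets' 40th percentile (log2 3.93), which left 19987 of 30062, all 9 members among them. limma 3.58.1 in R 4.3.3 was fitted to all 12 arrays with group and sex, the variance following the mean signal, and with 6 means of group by sex for the effects within a sex. The fits were tested on simulated data. Array quality was the area separating 1324 exon from 5222 intron control probe sets.

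The members, gene lists and rules for naming genes (all members, every listed gene past the threshold, otherwise the 2 of smallest p per list and silver comparison, and the 3 most alike genes) were chosen with earlier results of these data known. The labels do not say whether the replicate numbers pair mice, and the main fit has no term for them. After group and sex, same-numbered arrays had residual correlations of -0.44 to 0.23. With so few mice per group and sex, these cannot settle whether mice were paired. Numbers 1 and 4 differ in sex between the control and silver groups, and all numbers match in sex between the coatings.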

Additional observations from a re-analysis of the deposited data

How the results depend on the processing

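The counts of members past the threshold (0, 0 and 0 with silver, 1 with sex, 0 for either coating by sex) were the same in every alternative, the replicate block included (0, 0, 0 and 1), and the block ended no member's call. Values that turned sign were short of the threshold in both fits, and the cause was not tested. With array weights, Alas1 was -0.031 for PVP-AgNP minus control and 0.12 for female minus male, where Blvra was 0.027 and Blvrb 0.052. With arrays centred on the median, which moved the median of all genes to -0.10 for PVP-AgNP minus control, Uros was -0.012 for cit-AgNP minus control, Alas1 -0.019 and Hmox2 -0.026 for PVP-AgNP minus control, and Cpox -0.067 and Ppox -0.00028 for PVP-AgNP minus cit-AgNP. After quantile normalization, Cpox was 0.0070 for PVP-AgNP minus control, Hmox2 0.053 for PVP-AgNP minus cit-AgNP, and Alas1 and Blvra 0.13 and 0.023 for female minus male. With the exon over intron area in the fit, PVP-AgNP minus control was 0.52 for Cpox, 0.20 for Blvrb, 0.12 for Alad and 0.038 for Slc48a1, and PVP-AgNP minus cit-AgNP was 0.014 for Urod, 0.51 for Blvrb and 0.18 for Alad. Without the 2 arrays of lowest area, PVP-AgNP minus control was 0.46 for Cpox and 0.13 for Blvrb, PVP-AgNP minus cit-AgNP was 0.020 for Fech, 0.55 for Blvrb, 0.13 for Alad, 0.0014 for Hmox2, 0.024 for Slc46a1 and 0.031 for Gsta3, and female minus male was 0.017 for Alas1. The replicate block gave 0.58 for Alas1 in females minus males. As differences of group medians, Alas1 was -0.40 for PVP-AgNP minus control and 0.49 for female minus male. Leaving out 1 array at a time gave, for cit-AgNP minus control, -0.45 to 0.12 for Alas2, -0.38 to 0.054 for Cpox, -0.050 to 0.057 for Uros and -0.00048 to 0.11 for Hpx. For PVP-AgNP minus control it gave -0.52 to 0.44 for Alas1 and -0.34 to 0.19 for Cpox, and for PVP-AgNP minus cit-AgNP -0.39 to 0.015 for Alas2, -0.23 to 0.31 for Cpox and -0.46 to 0.16 for Blvrb. For female minus male it gave -0.24 to 0.40 for Alas1, -0.056 to 0.044 for Blvra and -0.38 to 0.0016 for Blvrb. Counts over all genes varied more, from 0 to 6 with cit-AgNP, 0 to 85 with PVP-AgNP (85 with the stricter filter, 61 without PVP-AgNP replicate 3), 0 to 4 between the coatings, and 56 (replicate block) to 930 (area in the fit) with sex. The 12 arrays and the ceiling of the scale limit what could be seen, and the highest signal of a member was 14.84, below that ceiling.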
